A study of Mus musculus with 10 samples.

Results

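10 mouse genes that restrain Wnt signalling were examined, namely Notum, Wif1, Rnf43, Znrf3, Tnfrsf19, Kremen1, Apcdd1, Axin2, Nkd1 and Nkd2. Their rows were found by symbol, and the 10 were chosen with earlier results of these data known. All have 1 row each, among 19333 genes of a comparison of oligodendrocyte precursor cells (OPCs) and among 22064 genes listed for sorted immune cells. The study holds 10 RNA sequencing libraries. Of these, 3 came from OPCs of Olig2-Cre:Apc-fl/fl mice, in which Cre made under control of the Olig2 gene deletes the floxed part of Apc, and 3 from OPCs of Apc-fl/fl littermates, which carry the same floxed alleles without Cre and are called wild type. Olig2 is active throughout the oligodendrocyte lineage and also in motor neuron progenitors. These cells had been purified on antibody-coated dishes and grown for 3 days with the growth factor PDGFAA. A further 4 libraries hold spinal cord cells sorted at day 18 of EAE (experimental autoimmune encephalomyelitis, an inflammatory model of multiple sclerosis), all from Pdgfra-CreER:Apc-fl/fl mice, in which the Pdgfra gene, active in OPCs, drives a tamoxifen-inducible Cre. No control genotype stands beside them. Of these 1 library holds CD4+ cells labelled Th1, and 3 hold CD11b+Gr-1+NK1.1+ cells labelled cytotoxic macrophages. No source used here says whether animals were pooled.

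Wnt ligands bind Frizzled and Lrp5 or Lrp6 receptors, which stops a complex built on Apc and Axin from marking beta-catenin for degradation, so that beta-catenin joins TCF/LEF factors and switches genes on. Many of the genes switched on in this way encode brakes on the same pathway, and they act at each of its steps. In the oligodendrocyte lineage, sustained Wnt signalling is known to hold precursors back from maturing. Of the genes described here, Notum and Wif1 are secreted, Rnf43, Znrf3, Tnfrsf19, Kremen1 and Apcdd1 sit in membranes, and Axin2, Nkd1 and Nkd2 work inside the cell, so the group is wider than secreted and membrane proteins.

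The OPC cultures are known here only from the authors' deposited table of 1 comparison, with no value per library, so depth and spread per library are unknown. That table does not name the numerator of its fold changes. The sign was read from Sp5 and Lef1, transcription factor genes induced by Wnt that are not among the 10, at -2.10 and -1.89 as deposited, and on that reading every log2 fold change below was turned to put Apc-deleted over wild-type cells; the shared direction of the 10 rests on it, since both factor genes answer to Wnt like most of them. In the authors' deposited table Apc itself stood at -0.14 (SE 0.13, adjusted p = 1), a value over the whole gene that is no check of the deleted part. Against the label of purified OPCs, neuron markers in the authors' deposited table had a median of 4309 mean normalized counts per kb of exon (8 genes). Astrocyte markers had a median of 764 (8 genes) and OPC markers one of 763 (8 genes), so the values are called OPC values after the label. The library labelled Th1 held 3051730 estimated reads and the macrophage libraries between 23174908 and 23564215. Of 9 annotated T cell markers 1 exceeded 3 reads in the library labelled Th1. T cell markers summed there to 66.3 TPM (a level corrected for transcript length), macrophage and monocyte markers to 12397 TPM and neutrophil markers to 24481 TPM. In the macrophage libraries neutrophil markers summed to between 433617 and 436702 TPM and macrophage and monocyte markers to between 29145 and 29704 TPM. Both cell names are therefore kept as labels only.

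Where the inhibitors sit and which sequence precedes them is given first, on GRCm38. Notum lies on chromosome 11 from 120653788 to 120661175, Rnf43 on chromosome 11 from 87662722 to 87735539, and Axin2 on chromosome 11 from 108920349 to 108950783. Znrf3 (chromosome 11, 5276324 to 5444847) and Kremen1 (chromosome 11, 5191552 to 5261558) are neighbours, 14.8 kb apart and on the same strand. Wif1 lies on chromosome 10 from 121033960 to 121100650 and Tnfrsf19 on chromosome 14 from 60963875 to 61046490. The paralogs Nkd1 (chromosome 8, 88521354 to 88594884) and Nkd2 (chromosome 13, 73818534 to 73847631) lie apart. All are protein-coding genes in GENCODE M21, which also gives the place of Apcdd1, stated with its values.

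RefSeq promoter windows of GRCm38.p6, from 250 bases before to 50 after a start, were at hand for 6 of the 10, Nkd1, Wif1, Rnf43, Axin2, Nkd2 and Tnfrsf19, with 8 windows in all. They were searched for CTTTGA on both strands, the core of the motif that TCF/LEF factors bind. It occurred in 1 of the 8 windows, the inner start of Tnfrsf19, against 16.0% of 32851 windows of all genes. The longer forms CTTTGAT and CTTTGAA, which contain the core, gave the same 1 window, against 8.65% of all windows. GC content of the 8 windows ran from 44.3% to 70.0%, with a median of 52.7% over all windows. A match is a description and not a shown binding site, and no match says only that these letters are absent from the window. The match is printed with 12 bases on each side, in the direction of transcription, with the reverse complement of CTTTGA in capitals; it lies outside annotated exons at chr14:61038171-61038200, minus strand, and its first base is 201 bases before the start.
Tnfrsf19, inner start: ctgaatgggggaTCAAAGtgacaaactaga
For a gene that rose and a pair of paralogs that parted, the 250 bases before the start are printed, none of them in an annotated exon. They are chr11:108920099-108920348 (plus strand) for Axin2, chr8:88527383-88527632 (plus strand, within an Nkd1 intron of GENCODE) for Nkd1 and chr13:73847632-73847881 (minus strand) for Nkd2, and the absence of capitals shows that none holds the core motif.
Axin2: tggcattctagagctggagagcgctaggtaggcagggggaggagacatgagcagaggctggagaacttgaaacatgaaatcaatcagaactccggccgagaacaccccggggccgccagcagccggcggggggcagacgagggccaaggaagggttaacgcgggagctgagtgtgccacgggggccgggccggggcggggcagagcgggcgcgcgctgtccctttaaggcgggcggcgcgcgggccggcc
Nkd1: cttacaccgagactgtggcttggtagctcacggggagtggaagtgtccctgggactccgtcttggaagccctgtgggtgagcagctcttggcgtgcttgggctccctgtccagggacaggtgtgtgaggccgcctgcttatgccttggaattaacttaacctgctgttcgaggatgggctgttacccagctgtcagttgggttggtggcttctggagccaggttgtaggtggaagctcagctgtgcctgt
Nkd2: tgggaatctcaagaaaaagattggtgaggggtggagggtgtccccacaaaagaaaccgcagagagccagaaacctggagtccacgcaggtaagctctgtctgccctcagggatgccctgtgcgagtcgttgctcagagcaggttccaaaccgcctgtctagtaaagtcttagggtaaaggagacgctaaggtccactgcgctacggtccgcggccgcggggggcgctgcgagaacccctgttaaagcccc

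The first comparison asked which of these brakes differ in OPCs that lack Apc. Notum, Rnf43, Nkd1, Tnfrsf19, Wif1 and Axin2 rose in Apc-deleted OPCs, between 2.01-fold and 29.8-fold. By the authors' deposited table, Znrf3, Kremen1, Apcdd1 and Nkd2 did not pass the threshold, an adjusted p of 0.05. These 6 of 10 stand beside 0.393% of all 19333 genes called higher and 0.548% called in either direction. Called lower were 0 of 10. Since the 10 were chosen with earlier results of these data known, such shares describe them and test nothing. At an unadjusted p under 0.05, 7 of the 10 passed, Znrf3 being the added one, beside 3.63% of all genes. All 10 pointed higher, beside 9726 of 19333 genes, and their median log2 fold change was 1.26, beside 0.00 over all genes of the authors' deposited table. The largest adjusted p among those that rose was 0.000367 for Nkd1, and the smallest among the others 0.773 for Znrf3. These calls rest on the normal distribution that the authors' deposited table uses: with a t distribution of 4 degrees of freedom 0 of the 10 and 0 of all genes passed, with an adjusted p of 1 for each of the 6.

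**Figure D1:**
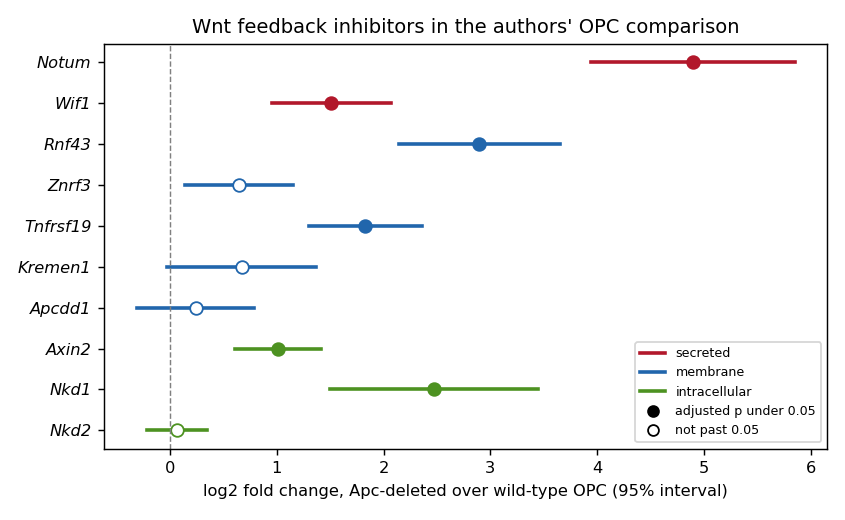
Log2 fold changes of the 10 genes, Apc-deleted over wild-type OPC, from the authors' deposited table, on the horizontal axis, with lines for 95% intervals computed from the deposited SE. Filled points passed an adjusted p of 0.05, colours give where the protein acts, and Notum at 4.90 stands farthest from 0 while Nkd2 at 0.06 lies on it.

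Of the secreted pair, Notum encodes an enzyme that strips the lipid from Wnt ligands and so inactivates them. It rose by a log2 fold change of 4.90 (SE 0.49, adjusted p = 2.31e-19 in the authors' deposited table), with a 95% interval from 15.3-fold to 57.8-fold, computed here, like every interval below, from the deposited SE. It had the smallest p of all genes in the table. Its mean was 112 normalized counts, and if both genotypes entered with equal numbers of libraries the deposited mean and fold imply 217 in Apc-deleted and 7.29 in wild-type OPCs. The size of the fold thus rests on a low wild-type level. Wif1 encodes a protein that binds Wnt ligands outside the cell. It rose by 1.51 (SE 0.29, adjusted p = 8.54e-05 in the authors' deposited table), at an implied 591 normalized counts in Apc-deleted and 208 in wild-type OPCs.

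Among the membrane proteins, Rnf43 and Znrf3 are related ubiquitin ligases that remove Frizzled receptors from the cell surface, unless R-spondins, bound to Lgr4, Lgr5 or Lgr6, clear the ligases themselves. Rnf43 rose by 2.89 (SE 0.39, adjusted p = 3.48e-10), and the authors' deposited table puts Znrf3 at 0.65 (SE 0.26), with p = 0.0122 unadjusted and p = 0.773 adjusted. The interval of Rnf43 ran from 4.4-fold to 12.6-fold and that of Znrf3 from 1.10-fold to 2.22-fold. These intervals do not overlap, and the difference between both genes was not tested, since the table gives no covariance. Implied levels of Rnf43 were 216 normalized counts in Apc-deleted and 29.1 in wild-type OPCs, and those of Znrf3 were 126 in Apc-deleted and 80.4 in wild-type OPCs. Over both genotypes, their mean levels in the authors' deposited table were 18.7 normalized counts per kb of exon for Rnf43 and 13.1 for Znrf3. These means describe neither genotype, since the implied level of Rnf43 lay below that of Znrf3 in wild-type and above it in Apc-deleted OPCs.

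Tnfrsf19 encodes an orphan member of the tumour necrosis factor receptor family and is a Wnt-induced gene of mouse intestinal stem cells. It rose by 1.83 (SE 0.27, adjusted p = 2.40e-08 in the authors' deposited table), to an implied 2002 normalized counts in Apc-deleted OPCs, against 563 in wild type. Kremen1 encodes a receptor for Dkk proteins, with which it withdraws Lrp6 from the surface, and it stood at 0.67 (SE 0.36, unadjusted p = 0.0596) in the authors' deposited table. Apcdd1, a membrane glycoprotein that binds Wnt ligands and Lrp5, stood at 0.24 (SE 0.28, unadjusted p = 0.395) there. It lies on chromosome 18 from 62922231 to 62961179. Their intervals ran from 0.981-fold to 2.59-fold for Kremen1 and from 0.806-fold to 1.73-fold for Apcdd1, so a rise of about the size of that of Axin2 lies within the first and not within the second.

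Among the intracellular proteins, Axin2 encodes a scaffold of the same degradation complex as Apc, and it rose by 1.01 (SE 0.20, adjusted p = 0.000324 in the authors' deposited table). That is 2.01-fold, with an interval from 1.53-fold to 2.65-fold, so Axin2 was the smallest of the 6 increases. Implied levels of Axin2 were 751 normalized counts in Apc-deleted and 373 in wild-type OPCs. Nkd1 and Nkd2 are paralogs that bind Dishevelled, the protein that relays the receptor signal. Nkd1 rose by 2.47 (SE 0.50, adjusted p = 0.000367), whereas Nkd2 stood at 0.06 (SE 0.15, unadjusted p = 0.667) in the authors' deposited table. Nkd1 had an implied 2091 normalized counts in Apc-deleted and 377 in wild-type OPCs, and Nkd2 377 in Apc-deleted and 361 in wild-type OPCs. Nkd2 was bounded tightly, from 0.857-fold to 1.27-fold, and Nkd1 ran from 2.82-fold to 10.9-fold. As for the ligase pair, the intervals of the paralogs do not overlap and their difference was not tested.

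**Figure D2:**
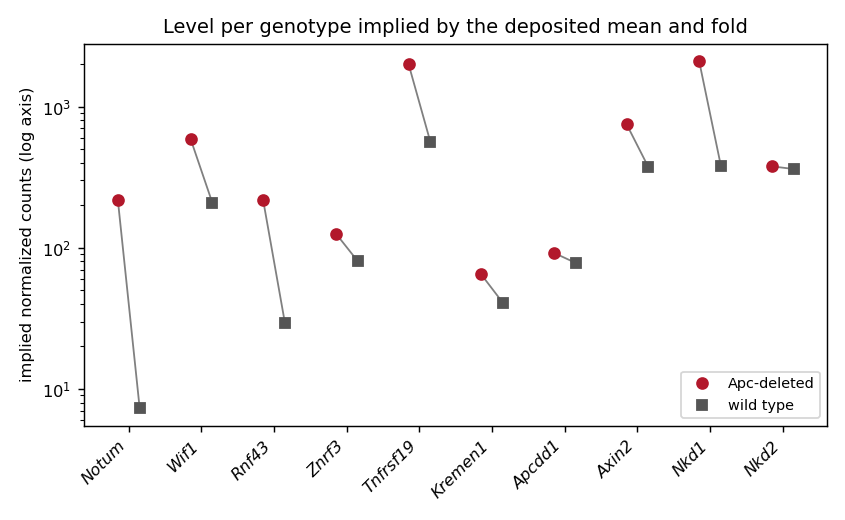
Normalized counts per genotype, on a log axis, that the mean and fold of the authors' deposited table imply for equal numbers of libraries, with circles for Apc-deleted and squares for wild-type OPCs. Notum spans 217 to 7.29 and Nkd2 377 to 361, and counts are not corrected for gene length, so heights compare genotypes and not genes.

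Levels between genes were compared per length only. Over both genotypes, Tnfrsf19 and Nkd1 led with 271 mean normalized counts per kb of exon each in the authors' deposited table, followed by Wif1 at 164, Axin2 at 102 and Nkd2 at 76.4. Notum followed at 46.6, Rnf43 at 18.7 and Znrf3 at 13.1, and Kremen1 and Apcdd1 closed the order at 6.82 and 6.60 in the authors' deposited table, beside a median of 35.8 over all genes of the table. No spread per library stands behind these levels, so which neighbours in the order differ cannot be said. Both genotypes enter these means, so the order need not hold in wild-type OPCs alone. There Notum had an implied 7.29 normalized counts from 2408 bases of exon, and Kremen1 40.6 from 7722 bases.

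The genes that rose also had larger SEs than others of their level. The SE of each gene was set against the median SE of the 200 genes nearest to it in mean count. In the authors' deposited table the ratio was 3.83 for Nkd1, 2.15 for Notum, 2.08 for Tnfrsf19, 1.85 for Wif1, 1.76 for Rnf43 and 1.34 for Axin2. For the others it lay between 0.926 (Nkd2) and 1.19 (Kremen1). In the case of Nkd1 this means an SE of 0.50 where genes of its mean level had 0.13. Among other Wnt-induced genes of a fixed list, Ccnd1, which encodes cyclin D1, had a ratio of 4.26, at a log2 fold change of 0.96 (SE 0.57) that the authors' deposited table does not call. Larger SEs were not particular to the inhibitors. The median ratio was 1.55 for the 10 and 1.63 for 8 OPC markers, of which Olig2, not called, had 2.13. Medians of the other fixed lists lay between 0.97 and 1.28.

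**Figure D3:**
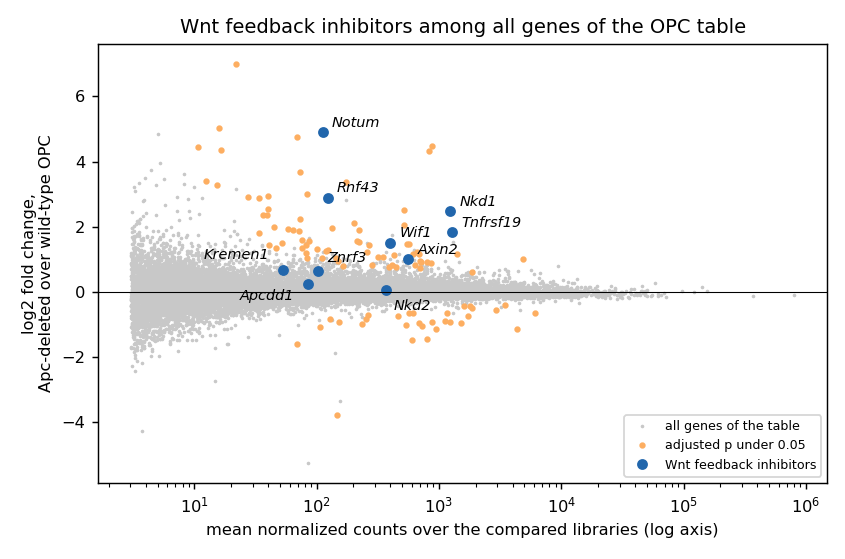
Log2 fold change, Apc-deleted over wild-type OPC, against mean normalized counts (log axis) for all 19333 genes of the authors' deposited table in grey, those past an adjusted p of 0.05 in orange and the 10 inhibitors in blue. Notum, Rnf43, Nkd1, Tnfrsf19, Wif1 and Axin2 lie above the grey band, and Znrf3, Kremen1, Apcdd1 and Nkd2 lie within it.

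By p-value, 3 of the 10 were among the 15 genes with the smallest p in the authors' deposited table, Notum at rank 1, Rnf43 at rank 4 and Tnfrsf19 at rank 10. Wif1, Axin2 and Nkd1 held ranks 28, 36 and 38. The others among the 15 that rose were Rasl11b (1.46, SE 0.20), Cdh3, which encodes P-cadherin (3.67, SE 0.50), Ascl4 (3.01, SE 0.42), Prss56 (2.04, SE 0.30), Lef1 (1.89, SE 0.29), Hdc, the histamine-forming enzyme (1.97, SE 0.31), Sp5 (2.10, SE 0.33) and the ligand gene Wnt6 (1.57, SE 0.25) in the authors' deposited table. Those that fell were the Notch ligand gene Dll3 (-1.48, SE 0.16), Gpr17 (-1.16, SE 0.15), which marks cells committed to become oligodendrocytes, Kank1 (-0.94, SE 0.13) and Chn2 (-0.91, SE 0.14) in the authors' deposited table.

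Other roles of the pathway were described by fixed lists from the authors' deposited table. Of 16 further secreted or membrane antagonists with a row, 1 rose and 0 fell, with a median of 0.14. It was Sostdc1, a secreted inhibitor of Wnt and BMP signals (0.95, SE 0.25, adjusted p = 0.0268 in the authors' deposited table). Frzb, a secreted Frizzled-related decoy, stood at 0.38 (SE 0.15) and Draxin at -0.24 (SE 0.13) without passing in the authors' deposited table. Of 7 R-spondins and their receptors none passed; by that table's unadjusted p the lowest was Lgr5 (0.92, SE 0.31, unadjusted p = 0.00277, adjusted p = 0.285).

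Among 6 TCF/LEF and Sp factors 2 rose, Lef1 and Sp5, which set the sign, and 1 fell, Tcf7l2 (-0.43, SE 0.12, adjusted p = 0.0499 in the authors' deposited table). Of 13 ligands with a row Wnt6 rose and 0 fell, and of 15 receptors Fzd10 (1.27, SE 0.27, adjusted p = 0.00124 in the authors' deposited table) rose and 0 fell. Gpc4, a glypican that holds ligands at the cell surface, rose by 1.05 (SE 0.27, adjusted p = 0.0191 in the authors' deposited table), as 1 of 8 glypicans and ligand release genes. Of 13 destruction complex and transducer genes 0 passed, and in the authors' deposited table they lay between -0.23 and 0.16 on the log2 scale. Of 11 other Wnt-induced genes 1 passed, Prox1, a transcription factor gene (1.15, SE 0.20, adjusted p = 7.86e-06 in the authors' deposited table). Cd44, a hyaluronan receptor gene, stood at 0.76 (SE 0.32) and the Notch ligand gene Jag1 at 0.19 (SE 0.13), neither called in the authors' deposited table. Medians of these lists lay between -0.05 and 0.20, against 1.26 for the 10 inhibitors, a difference that was not tested. All of these lists were chosen with earlier results of these data known.

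**Figure D4:**
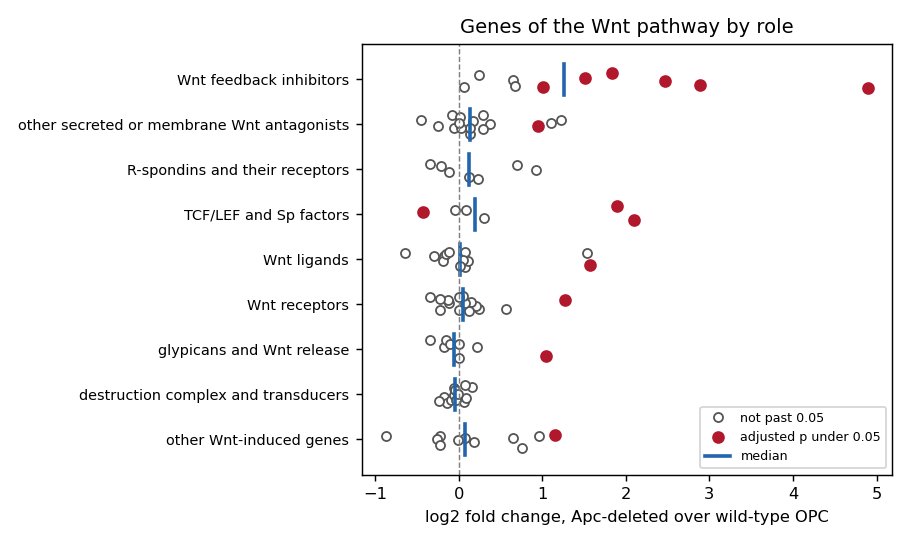
Log2 fold changes, Apc-deleted over wild-type OPC, of the genes of each fixed Wnt list in the authors' deposited table, with filled points past an adjusted p of 0.05 and a bar at each list's median. The inhibitors have 6 filled points and a median of 1.26, and the other lists have between 0 and 3 filled points and medians between -0.05 and 0.20; points are spread vertically at random.

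The adjacent genes were looked at as well. Among the nearest genes with a row on each side of the 10, 20 in all including Znrf3 and Kremen1 as each other's neighbour, 1 passed in the authors' deposited table. It was 2700046A07Rik, 165.9 kb from Apcdd1, at 2.35 (SE 0.48, adjusted p = 0.000589). Beside Notum, Pycr1 stood at 0.34 (SE 0.19) and Aspscr1 at -0.58 (SE 0.52), and beside Rnf43, Hsf5 stood at -0.04 (SE 0.52) and Supt4a at -0.16 (SE 0.25), and the authors' deposited table calls none of them. Within genes, Gm45496, a transcript on the same strand inside Nkd1 and named after its values were seen, rose by 1.51 (SE 0.35, adjusted p = 0.00540 in the authors' deposited table), so reads may be shared with Nkd1. The antisense genes Notumos (1.90, SE 0.93) and Gm11670, which overlaps Axin2 (0.66, SE 0.91), also chosen after their values were seen, had means of 5.91 and 5.53 normalized counts in the authors' deposited table and were not called. The sources used here do not say whether counting used strand.

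Markers of phagocytes moved in the same comparison. Of 10 macrophage and monocyte markers with a row 9 pointed higher and 2 rose, Lyz2 (4.33, SE 0.96) and Cd68 (1.54, SE 0.36), and the list summed to an implied 3763 normalized counts in Apc-deleted and 1968 in wild-type OPCs in the authors' deposited table. Lyz2 alone made up 1568 of that sum in Apc-deleted and 78.1 in wild-type OPCs, and Itgam, Csf1r, Mertk, Mrc1 and Fcgr1 lay between -0.08 and 0.12 on the log2 scale in the authors' deposited table. Cd14 (1.78, SE 0.61), Adgre1 (1.87, SE 0.65) and Ms4a7 (1.59, SE 0.60) also pointed higher. Their unadjusted p in the authors' deposited table was 0.00368, 0.00433 and 0.00786, and none was called. Ccr2 and Ly6c2 of that list had no row. OPC markers summed to an implied 36834 in Apc-deleted and 37677 in wild-type OPCs, with Gpr17 and Nkx2-2 lower among 8. Bulk values cannot tell fewer cells of a type from less RNA per cell. The part of other cell types in the changes of the inhibitors was not tested, and their levels in the sorted myeloid cells are given next.

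In cells sorted from EAE cord the inhibitors were nearly without reads. Notum, Rnf43, Tnfrsf19 and Axin2 had no read in any of the 4 libraries, which over the 3 macrophage libraries together allows up to 0.0427 CPM (reads scaled to equal library totals) and in the library labelled Th1 up to 0.983 CPM, by the floor of 3 reads. Such floors, and the exact Poisson intervals below, cover counting error only. Entries left empty in the files were taken as 0.

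Kremen1 was the most abundant of the 10 in the macrophage libraries, with 0.38, 0.39 and 0.30 TPM from 43, 37 and 34 reads. It had 0.07 TPM from 1 read in the library labelled Th1. The 3 macrophage values lay close together and above the single value of the library labelled Th1. That 1 read equals 0.328 CPM (exact 95% interval 0.00830 to 1.83), against 1.62 CPM (1.34 to 1.95) over the macrophage libraries, so the intervals overlap. Kremen1 was also the only 1 of the 10 with enough reads to be tested. It did not pass by edgeR's quasi-likelihood test with Benjamini-Hochberg adjustment, at a log2 fold change of -0.81 (Th1 over macrophage) and an adjusted p of 0.556, where the lone library is assumed to vary like the macrophage libraries. With DESeq2 size factors the sign flipped to 0.70, and with total reads as the only scaling it was -2.29 (adjusted p = 0.0406 by edgeR), so no direction can be given. The median over all tested genes also differed by method, at -5.61 by edgeR, -1.71 by DESeq2 and -6.25 with total reads only. It lay below Kremen1 each time but did not move by the same amounts, and the part of scaling in these differences was not tested. Calls here needed a change of at least 4-fold and an adjusted p under 0.05, by edgeR and by DESeq2. By edgeR they took in 68.2% of 11447 genes, with 54.6% lower, and 0 of the 10 inhibitors, where 0 also had an unadjusted p under 0.05. DESeq2 gave Kremen1 no adjusted p, so it could not have called any of the 10. Lower genes were 79.9% of the calls by edgeR, 58.1% by DESeq2 and 88.1% with total reads only.

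Znrf3 had 8, 7 and 5 reads in the macrophage libraries, at 0.03, 0.02 and 0.02 TPM, and Apcdd1 had 6, 6 and 5 reads, at 0.04, 0.04 and 0.03 TPM. Neither had a read in the library labelled Th1, whose floor of 0.983 CPM lies above their pooled macrophage levels of 0.285 and 0.242 CPM, so a difference was not detectable at this depth. Wif1 had 3 reads (0.44 TPM) in the library labelled Th1 and 3, 0 and 1 reads in the macrophage libraries. Nkd1 had 0 reads in the library labelled Th1 and 0, 2 and 0 in the macrophage libraries, and Nkd2 had 1 read in the library labelled Th1 and none in the macrophage libraries. All 10 together summed to 0.59 TPM in the library labelled Th1 and to between 0.36 and 0.48 TPM in the macrophage libraries.

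**Figure D5:**
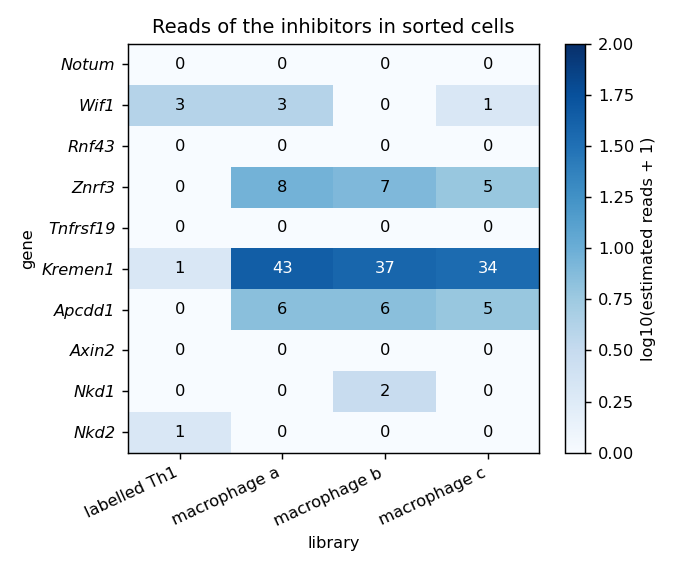
Estimated reads of each inhibitor (rows) in the library labelled Th1 and the macrophage libraries (columns, lettered here in no order of replicates), printed in each cell and coloured by log10(reads + 1), with empty entries drawn as 0. Kremen1, with 34 to 43 reads, is the darkest row, and Notum, Rnf43, Tnfrsf19 and Axin2 are at 0 throughout.

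Both data sets can be read side by side. Of the 6 that rose in Apc-deleted OPCs, 4 had no read and Wif1 and Nkd1 at most 3 reads in any sorted library. Of the 4 that did not pass, Kremen1, Znrf3 and Apcdd1 had more than 3 reads in every macrophage library. Reads are not corrected for length, and these genes have 7722, 7893 and 12884 bases of exon. The 6 that rose have 2408 to 6558. In the macrophage libraries Kremen1 had 0.3 to 0.39 TPM, Znrf3 0.02 to 0.03 and Apcdd1 0.03 to 0.04. Wif1 and Nkd1 reached 0.03 and 0.02 TPM there, so per length only Kremen1 stood apart. A link between both data sets was not tested. Levels were not compared across both tables, which were normalized separately. Elsewhere in the pathway, among genes chosen after their values were seen, the macrophage libraries had Bambi, a decoy receptor for TGF-beta family ligands, at 4.19, 4.15 and 3.96 TPM, and Rspo1 at 2.84, 2.63 and 2.90 TPM, with no read of either in the library labelled Th1. Apc stood at 0.43 TPM in the library labelled Th1 and at 0.46, 0.38 and 0.40 TPM in the macrophage libraries.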

How the data were processed

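Per the labels' protocols, Trizol was used to extract RNA and an Illumina HiSeq to sequence it. The submitters' processing notes name GRCm38. No aligner or counting tool is given in the sources used here. For OPCs the authors deposited a comparison table with, per the file headers, a mean of normalized counts (used as a signal level), a log2 fold change, its SE, a statistic (a score equal to fold change over SE), a raw p-value and an adjusted one. The deposited adjusted p-values correspond to about 19602 genes (median over genes), and 19333 were used here. Each immune file holds TPM and estimated counts made by the authors, per the file headers. Estimated counts were rounded and blanks set to 0. The macrophage column codes are in no label, so these columns were tied to the group without a replicate number, and 8 columns of values per sample were not used.

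The design had allowed for values per OPC library. With none, the authors' test was taken as deposited. The library labelled Th1 was set against the macrophage libraries with the quasi-likelihood test of edgeR 4.0.16 after filterByExpr and TMM scaling. Benjamini-Hochberg adjustment was used, with DESeq2 1.42.0 as an alternative. The edgeR test was tried on simulated data in which most genes did not differ. In the comparison itself most genes were called, so the simulation does not check the scaling there. Macrophage libraries differed beyond sampling noise (chi-square per gene 1.29 to 2.53, where noise gives 1) and count as 3, but no source says that they are separate animals, so p-values rest on a spread that may be only technical. Exon lengths and positions come from GENCODE M21 (99.81% of identifiers matched without version), promoters from RefSeq, GRCm38.p6. The members, lists and tests were chosen with earlier results of these data known. Other genes named are the 15 with the smallest p, genes of each pathway list that passed and up to 3 more of smallest p, neighbours and label markers. Genes outside this rule are named as chosen after their values were seen. Software was Python 3.11.15 with pandas 2.3.3, numpy 2.4.6, matplotlib 3.10.9 and scipy 1.17.1, and R 4.3.3.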

Additional observations from a re-analysis of the deposited data

How the results depend on the processing

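The count of 6 of 10 inhibitors higher in Apc-deleted OPCs was again 6 with means of at least 10 or 100 normalized counts, a threshold of 0.1, at least 2-fold, Bonferroni adjustment, and p-values adjusted again over the rows used here (the last chosen after seeing the data). With a t distribution of 4 degrees of freedom in place of the authors' normal one it was 0, as 0 of all 19333 genes passed with adjusted p of 1 for each of the 6, while 6 inhibitors and 242 genes had an unadjusted p under 0.05. In the library labelled Th1 over macrophages, 0 inhibitors passed, also at 2-fold and by leave-one-out of macrophage libraries (0 to 0). DESeq2 could not have called any inhibitor, since it gave Kremen1, the only inhibitor tested, no adjusted p. With total reads as the only scaling 1 passed (Kremen1, -2.29), and with no filter 1 (Wif1, 5.0, adjusted p = 0.0159 by edgeR, from 3 reads). The log2 fold change of Kremen1 reversed to 0.70 by DESeq2 and ran from -0.83 to -0.63 by leave-one-out. Kremen1 made up 81.8% ± 2.3 (SD, n = 3) of the inhibitors' TPM in macrophage libraries and 72.8% ± 2.4 of their CPM, which, unlike TPM, is not corrected for length. SE ratios from 50 nearest genes ran from 1.35 to 3.72 for the 6 inhibitors that rose and from 0.913 to 1.21 for the others. Over all genes of the OPC table, 76 were called higher and 30 lower, against 46 and 30 with means of at least 100, 30 and 14 by Bonferroni and 63 and 9 at 2-fold or more. In the immune comparison DESeq2 called 4471 genes, against 7812 by edgeR. No paired analysis was possible because the OPC table holds no values per library, and leaving out OPC libraries was not run for the same reason. OPC depth is unknown, and a gene without a read in the library labelled Th1 may still have up to 0.983 CPM by the floor of 3 reads.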
